A study of Homo sapiens with 20 samples.

Results

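The HOXD interval is a stretch of 200001 bp on human chromosome 2 (hg19) that holds the gene EVX2 and the 9 HOXD genes, from 42200 bp before EVX2 to 44365 bp past HOXD1. All CTCF peaks with a summit inside it and all H3K4me3 and H3K27ac regions that touch it were taken from every deposited list, with no use of their values. Merged across libraries they gave 23 members, 9 CTCF locations and 14 histone regions, of 263838 such places in the whole series. LNCaP cells, a prostate cancer line, were profiled by ChIP-seq for CTCF, H3K4me3 and H3K27ac, and IMR90 cells, a lung fibroblast line, for CTCF alone, by the standard protocol and by one for low cell numbers. Each was transfected with 20 nM non-targeting siRNA (control) or CTCF siRNA and harvested at 144 h, with 2 libraries in each of 10 conditions, 20 libraries in all. The study lowered CTCF to ask which of its binding sites keep the protein and whether histone marks change when it is lost. Each cell type is a single cell line.

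CTCF is a zinc finger protein that binds a long, directional DNA motif, and with cohesin it anchors chromatin loops and boundaries between domains. The HOXD genes encode homeobox transcription factors that lie in the order in which they are used along the body axis and the limbs, with HOXD13 at one end and HOXD1 at the other. In developing limbs, CTCF sites inside the cluster are known to lie near the border between the regulatory landscapes on either side. H3K4me3 marks promoters and other CpG-rich elements, including those poised under Polycomb repression, and H3K27ac marks active promoters and enhancers.

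The 9 CTCF locations all lay on the HOXD13 side of the cluster, between EVX2 and the intron of HOXD3, the last 10799 bp before HOXD4, and none lay beyond it. From EVX2 onwards, the first was chr2:176944473-176945235 over an EVX2 exon. A pair followed between EVX2 and HOXD13, at chr2:176950949-176951289 and chr2:176952821-176953581. The next was at chr2:176962282-176962884 between HOXD13 and HOXD12. Within HOXD10 there was one at chr2:176975788-176976389, in exonic sequence outside the coding part, and one at chr2:176983629-176984016 over a coding exon. A location at chr2:176985531-176985813 lay between HOXD10 and HOXD9. The last were chr2:176991486-176992304, in an intron of the antisense RNA gene HOXD-AS2 between HOXD9 and HOXD8, and chr2:177005061-177005897 in an intron of HOXD3.

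The sequences below are the matches to the 14-base core of the CTCF consensus that lay nearest the control summits, shown because the locations differed in strand and closeness to the consensus. Each is written 5′ to 3′ on the strand of the match from hg19, with the 14-base core in capitals and 8 bases on each side. Both strands of each location were searched with up to 2 mismatches.
EVX2 exon (chr2:176944710-176944739, minus strand, 1 mismatch): tgccgctgCCGCCAGGGGGCGCcccggggc
HOXD13–HOXD12 (chr2:176962477-176962506, minus strand, 2 mismatches): cccaatgcCCAGGAGATGGCGAgcgcgctc
HOXD10 non-coding exon (chr2:176976115-176976144, plus strand, 2 mismatches): ctggagatCCACACGAGGGCGCgctcacgt
HOXD10–HOXD9 (chr2:176985601-176985630, plus strand, 2 mismatches): caggatctCCACTAGAGAGCCCagacttat
HOXD9–HOXD8 (chr2:176991925-176991954, plus strand, 1 mismatch): gcatttggCCACTAGAGAGCGCtgttgctc
HOXD3 intron, first match (chr2:177005365-177005394, plus strand, 2 mismatches): cgcctcgtCCAGGAGGAGGCGCtgtaggac
HOXD3 intron, second match (chr2:177005628-177005657, plus strand, 2 mismatches): tccgcgctCCCGGAGGGGGCGCgatttcct

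The matches nearest the summits were on the minus strand at the EVX2 exon and HOXD13–HOXD12 locations and on the plus strand at the locations from HOXD10 to HOXD3. The centre of each of the 7 lay within 16 bp of a control summit. At the EVX2 exon, 3 further matches with 2 mismatches lay 82 bp or more from the nearest control summit, and of these 1 was on the minus strand. No match with up to 2 mismatches lay in either EVX2–HOXD13 location or in the HOXD10 coding exon location. Within 100 bp of the LNCaP summit, the first EVX2–HOXD13 location and the HOXD10 coding exon location had a best match with 3 mismatches, and the second EVX2–HOXD13 location one with 4.

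For context, LNCaP control sites were defined as places with a peak in both control libraries, 33413 in the genome and 7 in the interval. Of the 7, 6 held a match with up to 3 mismatches within 100 bp of the summit, against 92.0% of all LNCaP control sites. With up to 2 mismatches, of the 7 only the HOXD13–HOXD12, HOXD10 non-coding exon, HOXD9–HOXD8 and HOXD3 intron sites held a match. The genome share with up to 2 mismatches was 74.0%, and in windows of the same 201 bp moved 1000 bp away it was 5.23%. With up to 3 mismatches 30.1% of the moved windows held a match, so that 3 mismatches mark a site only weakly. Over the same 201 bp the 7 HOXD sites ranged from 40.3% to 71.6% GC, with a median of 60.2%, and the median of all LNCaP control sites was 48.3%. The lowest of the 7 was the HOXD9–HOXD8 site and the highest the HOXD3 intron site.

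In LNCaP cells the HOXD interval went from 8 and 7 listed CTCF peaks in the control libraries to 2 and 3 in the CTCF siRNA libraries. The groups did not overlap, with means of 7.5 ± 0.71 and 2.5 ± 0.71 (SD, n = 2 libraries each). An exact two-sided permutation test over libraries gave p = 0.33, the smallest value that 2 libraries against 2 allow, so no comparison here can pass 0.05. The lists as a whole shrank as well, from 38017 and 46364 peaks to 3724 and 7730. Each list was also shortened by p-value to the 3724 peaks of the shortest one. The control libraries then held on average 0 HOXD peaks and the CTCF siRNA libraries 1, so the direction turned. The cut kept only the control peaks with the lowest p-values. The LNCaP HOXD control sites stood at percentiles 32.2 to 78.5 of all by mean fold enrichment. A low control count was thus likely beforehand, and this setting cannot weigh the loss of peaks. Nowhere in the interval did both CTCF siRNA libraries share a peak where neither control library had one, in any of the 3 CTCF experiments. Such places were rare in the whole genome too, 50 in LNCaP, 129 in standard IMR90 and 9 in low-cell IMR90.

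**Figure D1:**
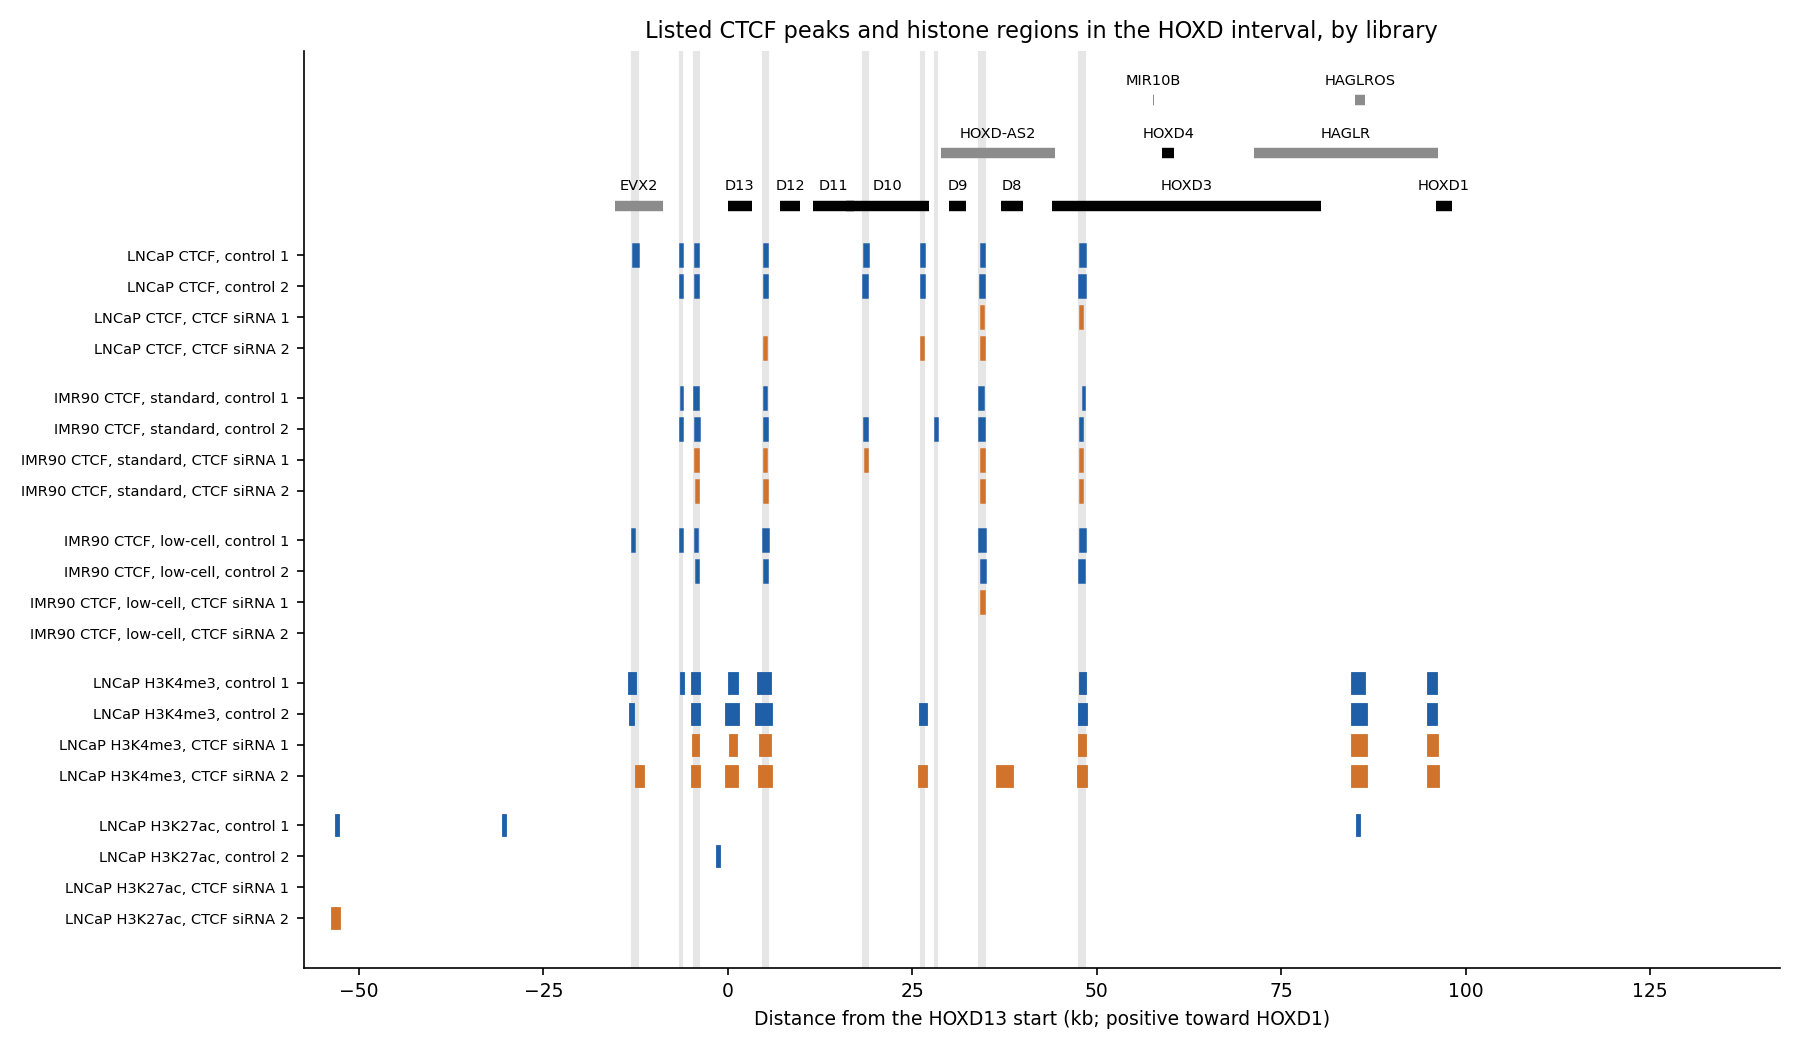
Positions of listed CTCF peaks and histone regions (bars, to scale apart from a thin outline) in each of the 20 libraries, against distance from the HOXD13 start in kb, with genes above and the 9 CTCF locations shaded grey. Control libraries are blue and CTCF siRNA libraries orange. A CTCF peak stood at the HOXD9–HOXD8 location in 11 of 12 CTCF libraries, and H3K27ac was listed in 0 to 3 places a library.

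Of the 7 LNCaP control sites, 1 had a peak in both CTCF siRNA libraries (called persistent here), against 9.26% of all LNCaP control sites. A further 3 had a peak in 1 CTCF siRNA library, so that 4 of 7 had at least 1, against 21.4% of all. The remaining 3 had none. The lists of the 2 CTCF siRNA libraries differ in length, and per the study's Reporting Summary replicate 1 was sequenced to fewer reads than the other LNCaP CTCF libraries. The part of depth in these fates was not tested. Over the genome, 10.0% of all control sites had a peak in replicate 1 and 20.6% in replicate 2.

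The persistent LNCaP site was the one between HOXD9 and HOXD8, genes for homeobox factors of the middle of the cluster. Its peaks had a fold enrichment over the local background, as the peak caller gave it, of 15.5 and 17.1 in the control libraries and of 7.38 and 9.16 in the CTCF siRNA libraries. Both CTCF siRNA values were below both control values. The medians of the whole lists were lower too, 8.75 and 8.93 in the CTCF siRNA libraries against 10.6 and 9.90 in the controls. The share of all LNCaP control sites with such a drop was not computed. Fold enrichment is not scaled between libraries, so the place of a peak in its own list is given too: the control peaks stood at percentiles 71.1 and 74.4, and the CTCF siRNA peaks at 31.8 and 52.9. These ranks come from lists of very different length and makeup, so they describe each list and do not measure a change at the site. Across all libraries with a peak there, the summits spanned 151 bp. Its sequence is shown because it held a CTCF peak in more libraries than any other HOXD location, with the 14-base core in capitals.
HOXD9–HOXD8 location (chr2:176991880-176991999, plus strand, 120 bases): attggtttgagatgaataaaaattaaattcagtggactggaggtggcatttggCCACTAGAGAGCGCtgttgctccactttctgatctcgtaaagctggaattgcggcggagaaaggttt

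The 3 LNCaP sites with a peak in 1 CTCF siRNA library were HOXD13–HOXD12, the HOXD10 coding exon and the HOXD3 intron. At HOXD13–HOXD12, between genes for the most posterior homeobox factors of the cluster, fold enrichment was 21.3 and 19.3 in the controls and 7.93 in CTCF siRNA replicate 2. At the coding exon of HOXD10, which encodes a factor used in limb and lumbar patterning, it was 12.4 and 16.6 in the controls and 7.94 in CTCF siRNA replicate 2. At the intron of HOXD3, whose product patterns anterior structures, it was 23.5 and 12.1 in the controls and 6.71 in CTCF siRNA replicate 1. Each of the 3 had only 1 CTCF siRNA value, which lay below both control values. The medians of the whole CTCF siRNA lists were also below those of the control lists, but those lists hold different sets of peaks. The share of all LNCaP control sites with such a drop was not computed, so whether it is particular to these sites was not tested.

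The 3 LNCaP sites without any CTCF siRNA peak were the pair between EVX2 and HOXD13 and the HOXD10 non-coding exon. The first EVX2–HOXD13 site had fold enrichments of 9.30 and 9.45 in the controls and the second 11.8 and 7.55. They were the lowest of the 7, at percentiles 32.2 and 33.9 of all LNCaP control sites by mean fold enrichment. The HOXD10 non-coding exon site had 15.0 and 21.6, at percentile 72.8. The persistent HOXD9–HOXD8 site stood at percentile 66.2, and HOXD13–HOXD12, the highest at 78.5, had a peak in only 1 CTCF siRNA library. With 7 sites and 1 of them persistent, whether control enrichment goes with fate was not tested.

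The EVX2 exon, which belongs to a homeobox gene next to the cluster, was no LNCaP control site. LNCaP control replicate 1 had a peak there with a fold enrichment of 22.6, at percentile 87.4 of its list, and control replicate 2 listed none. The only other peak at this location was in low-cell IMR90 control replicate 1, with 7.12.

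In IMR90 cells with the standard protocol the interval held 5 and 7 CTCF peaks in the control libraries and 5 and 4 in the CTCF siRNA libraries. The groups overlapped, with means of 6.0 ± 1.41 and 4.5 ± 0.71 (SD, n = 2), and the exact permutation test gave p = 0.67. The lists fell from 35719 and 36890 peaks to 19180 and 18539. Lists shortened to equal length gave means of 2.5 and 4.0, so here too the direction turned. Of 4 control sites 3 were persistent, against 51.4% of all IMR90 control sites of this protocol.

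The persistent IMR90 sites were HOXD9–HOXD8, HOXD13–HOXD12 and the second EVX2–HOXD13 location. At HOXD9–HOXD8 fold enrichment was 22.1 and 23.8 in the controls and 30.1 and 21.8 in the CTCF siRNA libraries, so the groups overlapped. At HOXD13–HOXD12 it was 11.1 and 25.0 in the controls and 9.74 and 12.4 in the CTCF siRNA libraries, again with overlap. At the second EVX2–HOXD13 location it was 12.3 and 16.7 in the controls and 8.13 and 7.44 in the CTCF siRNA libraries. Both CTCF siRNA values there lay below both controls. The medians of the whole lists were 11.1 and 11.3 in the controls and 11.0 and 11.3 in the CTCF siRNA libraries. The share of all standard IMR90 control sites with such a drop was not computed. The first EVX2–HOXD13 location, the weakest of the 4 at 6.09 and 5.77, had no CTCF siRNA peak.

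Other IMR90 peaks were less regular. The HOXD10 non-coding exon had a peak in control replicate 2, at 11.5, and in CTCF siRNA replicate 1, at 3.77. The HOXD10–HOXD9 location rested on a single peak of 4.62 in control replicate 2, at percentile 4.39 of its list. The HOXD10 coding exon had no peak in any of the 8 IMR90 libraries of either protocol.

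The HOXD3 intron was no IMR90 control site of the standard protocol, although all 4 libraries listed a peak there. The peaks of control replicates 1 and 2 did not overlap and lay 119 bp apart. The summit of control replicate 1 lay at the centre of the second match, and that of control replicate 2 lay 68 bp from the centre of the first. Over all libraries with a peak at this location, 8 of 9 summits lay nearer the first match, and 4 of the 9 peaks covered both. Both CTCF siRNA libraries had a peak near the first match, with fold enrichments of 7.84 and 5.28, and the controls had 5.79 and 8.34. The sequence from 8 bases before the first match to 8 bases after the second is shown because the peaks divided between them. Both cores are in capitals, with 249 bases between.
HOXD3 intron location (chr2:177005365-177005657, plus strand, 293 bases): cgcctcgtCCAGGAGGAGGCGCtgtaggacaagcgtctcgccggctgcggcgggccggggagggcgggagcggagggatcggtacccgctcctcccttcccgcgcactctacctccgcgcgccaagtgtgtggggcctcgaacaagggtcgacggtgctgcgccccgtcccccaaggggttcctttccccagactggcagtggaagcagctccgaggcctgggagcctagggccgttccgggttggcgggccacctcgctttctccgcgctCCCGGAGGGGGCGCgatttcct

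The low-cell IMR90 libraries held 6 and 4 CTCF peaks in the interval in the controls and 1 and 0 after CTCF siRNA. The groups did not overlap, with means of 5.0 ± 1.41 and 0.5 ± 0.71 (SD, n = 2), and the exact permutation test gave p = 0.33. The lists fell from 20284 and 19153 peaks to 5111 and 2021, and with lists of equal length the means were 2.0 and 0.5. None of 4 control sites was persistent, against 10.9% of all control sites of this protocol. The single CTCF siRNA peak, in replicate 1, was again at HOXD9–HOXD8, with a fold enrichment of 23.3 at percentile 96.9 of its list, and the controls had 17.4 and 11.0.

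The other low-cell control sites had no CTCF siRNA peak. HOXD13–HOXD12 had fold enrichments of 17.5 and 10.2 in the controls, and the second EVX2–HOXD13 location 5.87 and 4.78. The HOXD3 intron had 18.0 and 19.9, and its control peaks overlapped, unlike those of the standard protocol. By mean fold enrichment it was the highest low-cell site of the interval, at percentile 96.9 of all control sites of that protocol.

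**Figure D2:**
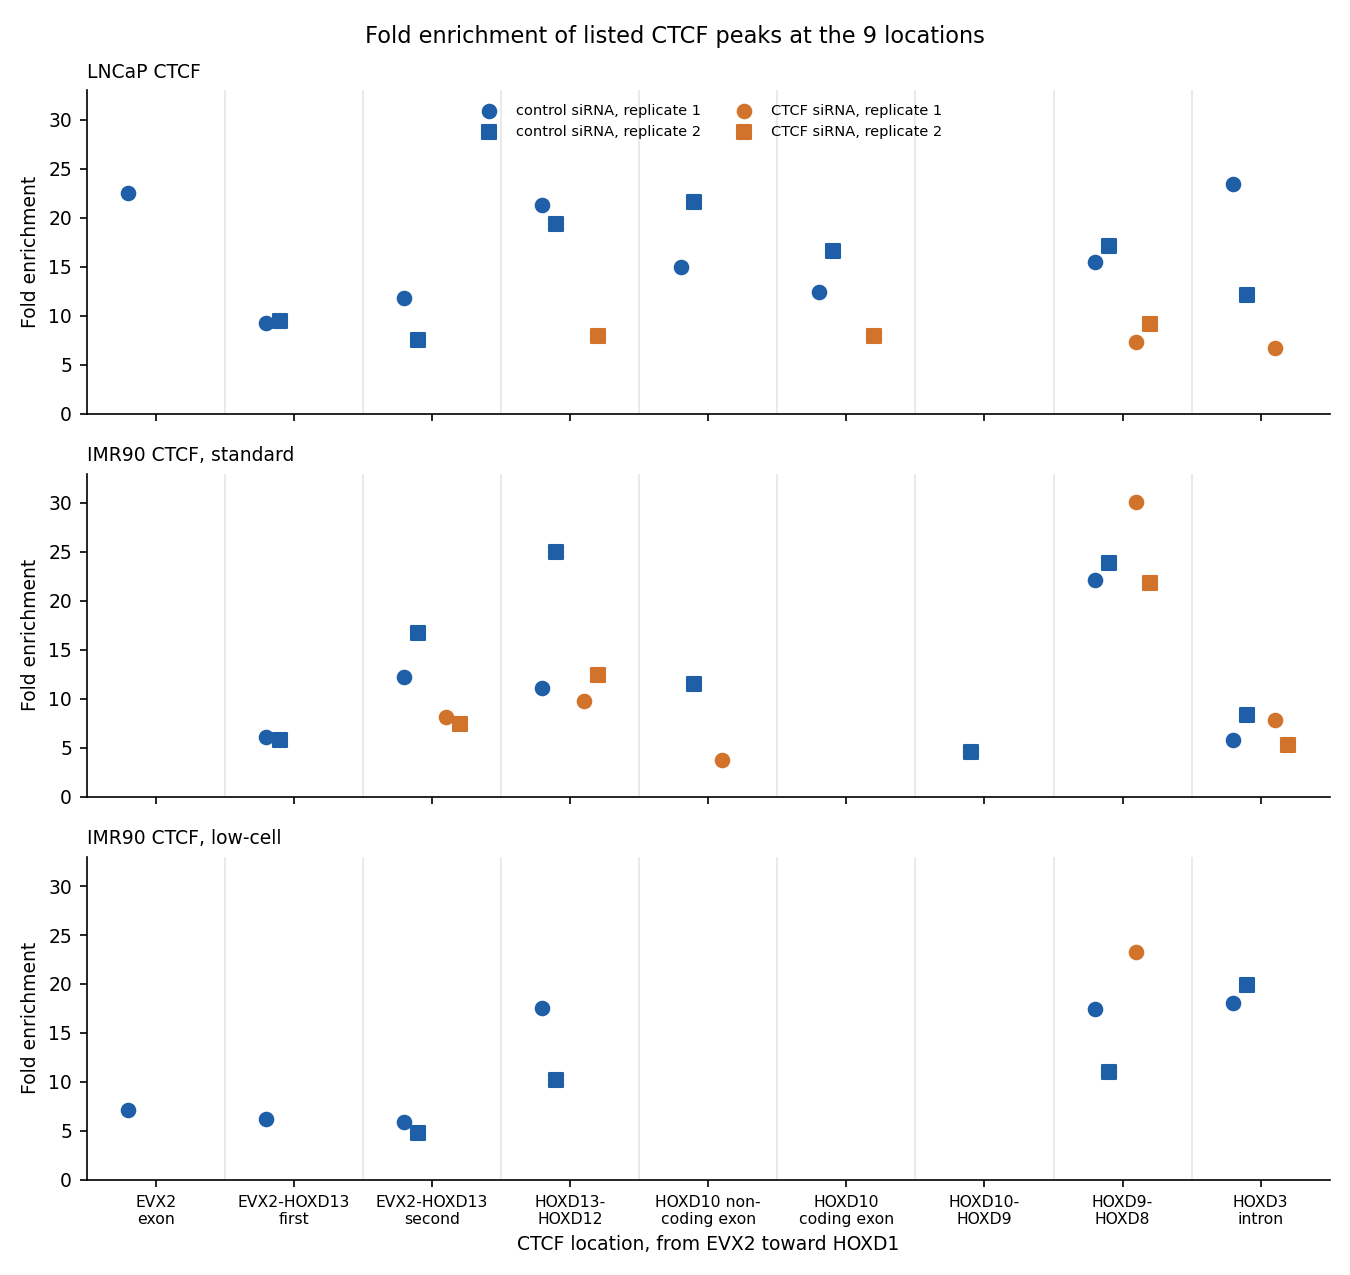
Fold enrichment of every listed CTCF peak (y axis, as given by the peak caller and not scaled between libraries) at the 9 locations from EVX2 to HOXD3, for LNCaP, standard IMR90 and low-cell IMR90 libraries. Each point is 1 library, control in blue and CTCF siRNA in orange, and a missing point means no listed peak. HOXD9–HOXD8 has CTCF siRNA points in all 3 panels, from 7.38 to 30.1.

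The cell lines shared 4 of the 7 LNCaP control sites, against 72.5% of all LNCaP control sites with an overlapping standard IMR90 control site. The shared sites were the pair between EVX2 and HOXD13, HOXD13–HOXD12 and HOXD9–HOXD8. With the low-cell control sites the number was also 4, against 46.1% of all, and it included the HOXD3 intron in place of the first EVX2–HOXD13 site. The counts of peaks in the control libraries, 8 and 7 in LNCaP and 5 and 7 in standard IMR90, overlapped (exact permutation test over libraries, two-sided, p = 0.67).

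In LNCaP cells the interval held 10 merged H3K4me3 regions, of which 8 were present in at least 2 of 4 libraries and are called consensus regions here. Of the 8, 6 were in all 4 libraries, against 58.9% of the 45684 consensus regions of the genome. They lay at the second EVX2–HOXD13 CTCF location (chr2:176952451-176953700), over the start of HOXD13 (chr2:176957001-176959000) and around HOXD13–HOXD12 (chr2:176961151-176963400). Towards HOXD1 they lay at the HOXD3 intron (chr2:177004801-177006150), over starts of the long non-coding RNA genes HAGLR and HAGLROS, which lie on opposite strands (chr2:177041901-177044050) and at the start of HOXD1 (chr2:177052201-177053850). The region at HOXD1 also lay over an exon of HAGLR.

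H3K4me3 covered 10100 and 12150 bp of the interval in the control libraries and 8400 and 14500 bp in the CTCF siRNA libraries. The control values lay between the CTCF siRNA values. Means were 11125 ± 1450 and 11450 ± 4313 bp (SD, n = 2), and the exact permutation test gave p = 1.0. In each group the library with more regions in the genome also covered more of the interval: list lengths were 36637 and 48605 in the controls and 41244 and 59920 after CTCF siRNA. Covered shares of the interval were 4.20% to 7.25%, and of the genome 2.07% to 3.33%. All 4 lists were also shortened by score to the length of the shortest, keeping the wider region first among equal scores. The controls then covered 10100 and 11400 bp and the CTCF siRNA libraries still 8400 and 14500 bp. That order favours covered length, so this setting cannot show the part of list length in the spread.

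Of the 7 LNCaP control CTCF sites 4 overlapped a consensus H3K4me3 region, against 17.5% of all, and 4 of the 8 regions overlapped such a site, against 12.1%. The other HOX clusters had overlaps of the same order, at 2 of 4 sites in HOXA, 6 of 8 in HOXB and 4 of 5 in HOXC. The 4 HOXD sites were the second EVX2–HOXD13 location, HOXD13–HOXD12, the HOXD10 coding exon and the HOXD3 intron. The persistent HOXD9–HOXD8 site was not among them. Its nearest H3K4me3 region on the HOXD13 side lay 28616 bp from the summit in replicate 1 of both groups, and 7416 and 7516 bp in replicate 2. On the HOXD3 side the nearest lay 13184 and 13034 bp away in the controls and 13034 and 1934 bp after CTCF siRNA. The HOXD10 non-coding exon site was as bare, with the nearest region towards HOXD13 12712 to 12812 bp from its summit in all 4 libraries and none nearer than 7138 bp on the other side.

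At the second EVX2–HOXD13 summit H3K4me3 reached 738 and 788 bp towards EVX2 in the controls and 688 and 788 bp after CTCF siRNA. Towards HOXD1 it reached 411 and 461 bp in the controls and 361 and 461 bp after CTCF siRNA. The groups overlapped on both sides, although neither CTCF siRNA library listed a CTCF peak there.

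At HOXD13–HOXD12 H3K4me3 reached 1139 and 1339 bp from the summit towards HOXD13 in the controls and 789 and 989 bp after CTCF siRNA, so the groups did not overlap. On the side of HOXD12 the values were 810 and 910 bp in both groups. The whole region was 1950 and 2250 bp wide in the controls and 1600 and 1900 bp after CTCF siRNA. It was the only one of 6 sides, at 3 sites with H3K4me3 over the summit in all 4 libraries, where both CTCF siRNA libraries were shorter, against 8.97% of such sides in the genome. No HOXD side was longer in both CTCF siRNA libraries, against 20.3% in the genome. Of the 6 regions in all 4 libraries this 1 was narrower in both CTCF siRNA libraries, against 5.89% in the genome, and 0 were wider, against 16.4%. It was singled out after its values were seen.

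At the HOXD3 intron H3K4me3 reached 271 and 421 bp towards HOXD13 in the controls and 421 and 571 bp after CTCF siRNA. Towards HOXD1 it reached 578 and 778 bp in the controls and 578 and 728 bp after CTCF siRNA. The groups touched or overlapped on both sides.

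**Figure D3:**
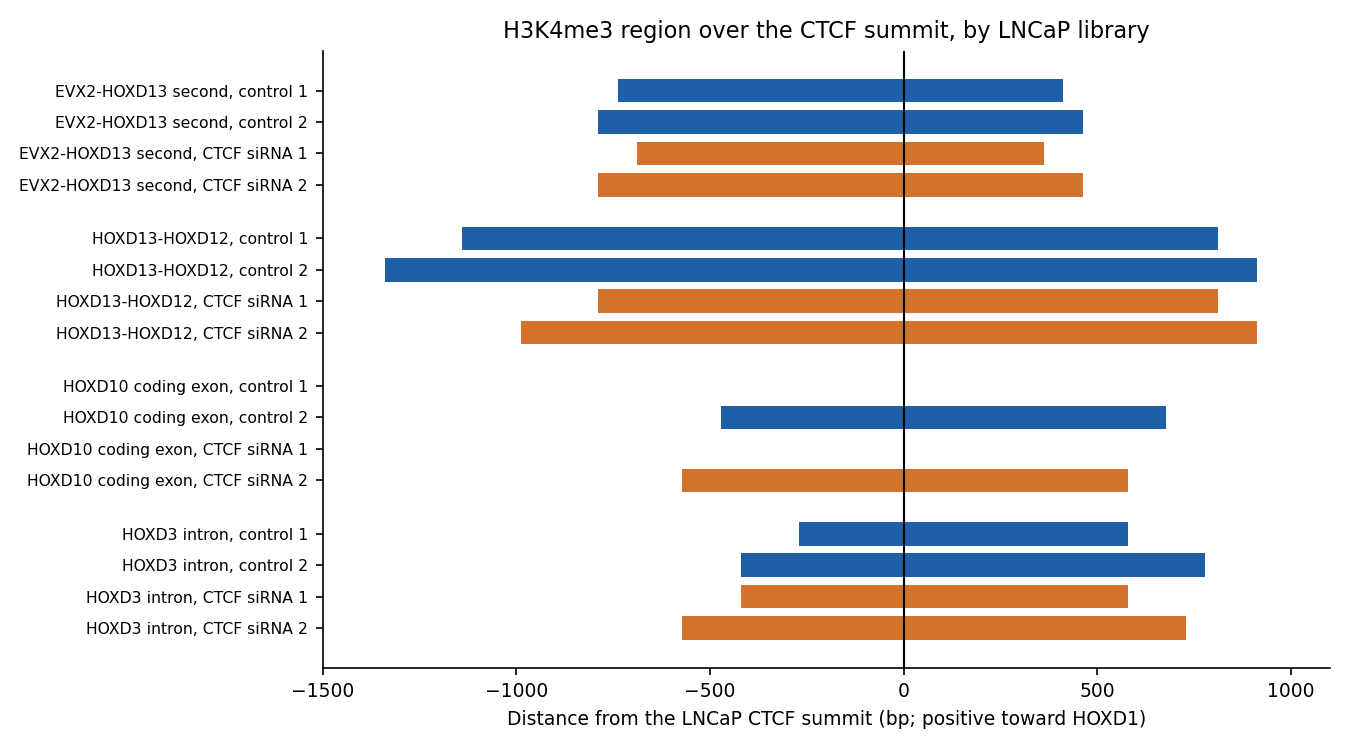
Extent of the H3K4me3 region that holds the LNCaP CTCF summit, in bp from that summit (x axis, positive towards HOXD1), for each LNCaP library at 4 CTCF sites, with controls in blue and CTCF siRNA in orange. A missing bar means that no region held the summit. At HOXD13–HOXD12 the bars on the HOXD13 side end at 1139 and 1339 bp in the controls and at 789 and 989 bp after CTCF siRNA.

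Other H3K4me3 regions depended on the library. The HOXD10 coding exon region (chr2:176983251-176984500) was listed in replicate 2 of each group, at 1150 bp in both, and in neither replicate 1. The EVX2 exon region (chr2:176943951-176946050) was listed in both controls, at 1050 and 750 bp, and in CTCF siRNA replicate 2, at 1150 bp. The control regions held the CTCF summit of LNCaP control replicate 1, while the CTCF siRNA region began 166 bp past it. A region at the first EVX2–HOXD13 location (chr2:176950951-176951500) was listed only in control replicate 1, at the smallest width of that list, 550 bp. A region of 2200 bp over the start of HOXD8 (chr2:176993851-176996050) was listed only in CTCF siRNA replicate 2, the longest H3K4me3 list.

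The stretches between neighbouring LNCaP CTCF sites differed in H3K4me3. From the second EVX2–HOXD13 location to HOXD13–HOXD12, 8700 bp that hold HOXD13, 2350 and 3250 bp was covered in the controls and 1800 and 2700 bp after CTCF siRNA. From HOXD13–HOXD12 to the HOXD10 non-coding exon, 12903 bp with HOXD12 and HOXD11, the controls had 3.22% and 4.00% and the CTCF siRNA libraries the same values. From HOXD9–HOXD8 to the HOXD3 intron, 12756 bp, the controls had 0% and 0.862% and the CTCF siRNA libraries 0.862% and 19.3%. The groups overlapped in each of these 3 stretches.

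By gene, H3K4me3 within 1000 bp of an annotated transcript start was present in all 4 libraries at 2 of the 9 HOXD genes, HOXD13 and HOXD1, against 66.6% of protein-coding genes. HOXD13, mutated in inherited limb malformations, had regions of 1350 and 2000 bp in the controls and of 1200 and 1800 bp after CTCF siRNA. HOXD1, at the other end of the cluster, had 1350 and 1400 bp in the controls and 1400 and 1600 bp after CTCF siRNA. This region also lay over an exon of HAGLR, on the opposite strand. Only 205 bp of it lay within HOXD1 in each control, and 255 and 455 bp after CTCF siRNA. The mark there cannot be assigned to HOXD1 rather than HAGLR. HOXD8 had the mark in the 1 library named above. HOXD12, HOXD11, HOXD10, HOXD9, HOXD3 and HOXD4 had no H3K4me3 near a start in any library, and neither had EVX2 or the microRNA gene MIR10B. Among the long non-coding RNA genes, HAGLR and HAGLROS had it in all 4 libraries. They shared a region of 1850 and 2150 bp in the controls and of 2150 bp in each CTCF siRNA library, and HAGLR also had the region at HOXD1.

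H3K27ac was nearly absent from the lists in this interval. It covered 1700 and 550 bp in the controls and 0 and 1150 bp after CTCF siRNA, with means of 1125 ± 813 and 575 ± 813 bp (SD, n = 2). The groups overlapped, and the exact permutation test gave p = 0.67. These were 0% to 0.850% of the interval, while the same libraries covered 3.95% to 7.31% of the genome.

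The 4 merged H3K27ac regions were small and only 1 reached 2 libraries. That one, at chr2:176903701-176904850 on the far side of EVX2, was 550 bp wide in control replicate 1 and 1150 bp in CTCF siRNA replicate 2. The others were single regions in 1 control library: 550 bp at chr2:176926901-176927450, 550 bp at chr2:176955801-176956350 and 600 bp over the same HAGLR and HAGLROS starts (chr2:177042551-177043150). A width of 550 bp is the smallest in those control lists.

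None of the 7 LNCaP control CTCF sites overlapped consensus H3K27ac, against 23.2% of all, and none of the 8 consensus H3K4me3 regions did, against 80.0%. H3K27ac was near a start in all 4 libraries at 0 of the 9 HOXD genes, against 58.3% of protein-coding genes, and near a HOXD gene start in 0 libraries. The nearest H3K27ac region to any LNCaP CTCF summit was 2562 bp away, beside the second EVX2–HOXD13 location in control replicate 2. CTCF siRNA replicate 1 listed no H3K27ac in the interval, although its list of 94628 regions was longer than either control list.

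The other HOX clusters, taken as the span of their genes with 10000 bp on each side, give a scale for these values. In the same LNCaP libraries H3K27ac covered 10.7% to 19.2% of HOXA, 14.0% to 21.1% of HOXB and 16.4% to 27.9% of HOXC, against 0% to 0.508% of HOXD. H3K4me3 covered 13.7% to 21.1% of HOXA, 15.8% to 19.4% of HOXB and 18.0% to 24.5% of HOXC, against 7.11% to 11.3% of HOXD. In all 4 libraries of each mark the HOXD share was the lowest of the 4 clusters. HOXB13, a HOXB gene of prostate luminal cells, had both marks at its start in all 4 libraries.

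LNCaP cells had 7 control sites at HOXD, 4 at HOXA, 8 at HOXB and 5 at HOXC, of which 1, 3, 2 and 1 were persistent. With the standard IMR90 protocol the clusters had 4, 5, 9 and 3 control sites in the same order, of which 3, 4, 4 and 2 were persistent. With the low-cell protocol they had 4, 6, 9 and 2, of which 0, 2, 2 and 1 were persistent. With so few sites a cluster these counts are a description without a test.

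**Figure D4:**
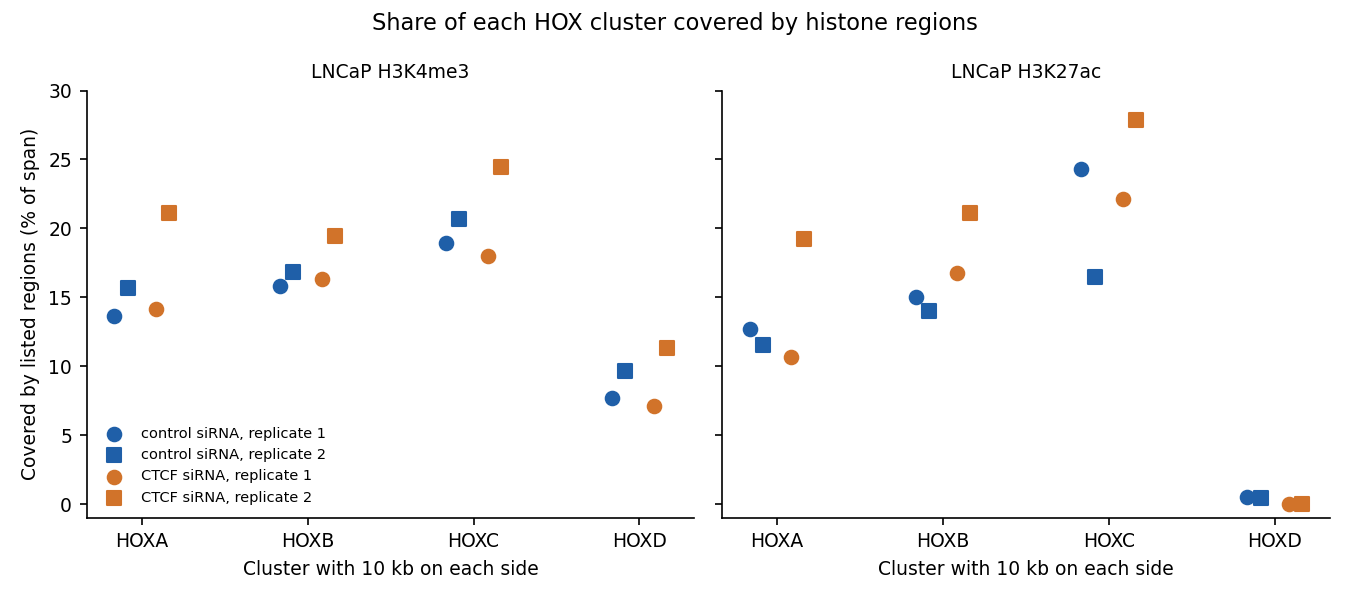
Share of each HOX cluster, with 10 kb on each side, covered by listed regions (y axis, % of the span) for H3K4me3 (left) and H3K27ac (right), with 1 point for each LNCaP library, controls in blue and CTCF siRNA in orange. HOXD lies lowest for both marks, at 7.11% to 11.3% for H3K4me3 and 0% to 0.508% for H3K27ac.

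The LNCaP label was checked against gene starts with each mark. Of 7 prostate luminal genes, H3K27ac was at the start in all 4 libraries at 7 and H3K4me3 at 5. Of 5 fibroblast genes, these numbers were 0 and 1, the one being COL1A1, and of 2 blood genes 0 and 0. Short of all 4 libraries, COL1A1 had H3K27ac in 3 and COL1A2 had H3K4me3 in 1. The prostate luminal genes without H3K4me3 in all 4 were KLK2, with it in 0, and TMPRSS2, with it in 2. The IMR90 label could not be checked in this way, since only CTCF lists of that line were used. CTCF RNA and protein levels were not analysed here.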

How the data were processed

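The members and lists were chosen with earlier results of these data known. Groups and replicate numbers came from the labels. For CTCF the authors aligned reads to hg19 and called peaks in each library with MACS2 at a q-value of 0.05, discarding clonal reads (standard protocol) or collapsing duplicates by molecular identifier (low-cell protocol). The deposited CTCF lists give a fold ratio over local background, −log10 p-values and −log10 q-values. For the histone marks the authors ran PeakRanger on each library. The deposited lists give positions and a score of unstated meaning, used only in alternatives, where the wider region was kept first among equal scores. The lists hold no read counts at peaks, so no counting intervals are given and list length stands beside each comparison. The Reporting Summary gives the reads sequenced for each library, lowest among the CTCF libraries for LNCaP CTCF siRNA replicate 1, and these totals were not used. No input library is named in the sources used here.

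Peaks overlapping by at least 1 bp were merged. A control site had a peak in both control libraries and a persistent site also in both CTCF siRNA libraries. Consensus histone regions were in at least 2 of 4 libraries. Counts and covered lengths were compared by exact two-sided permutation over libraries. Per the methods the standard ChIP experiments were biological duplicates, and the low-cell ChIP was done in duplicate with nothing more said, so its p-values may measure technical spread only. Annotation was GENCODE on GRCh37, with the coordinates of hg19, and 0 peaks lay past a chromosome end. All HOXD genes, EVX2, every control site and every consensus region were named, and peaks of 1 library were also given. Python 3.11.15, numpy 2.4.6 and pandas 2.3.3 were used. Site building and the motif search were tested on simulated data. Alternatives covered overlap, q-value, list length, interval, score, gap, libraries required, replicate block and each library left out. Same-numbered libraries deviated together with correlations of −0.01 to 0.30, and with 2 pairs the numbers were treated as sharing only a number.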

Additional observations from a re-analysis of the deposited data

How the results depend on the processing

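No call changed, since no comparison of 2 libraries against 2 can pass 0.05, and of 131 alternative values 103 kept the direction or stayed within 1.5 times the count. With the replicate block the differences were unchanged at −5 peaks (LNCaP, exact sign-flip p = 0.5), −1.5 (standard IMR90, p = 1.0), −4.5 (low-cell, p = 0.5), 325 bp of H3K4me3 (p = 1.0) and −550 bp of H3K27ac (p = 1.0), and the block cannot go below 0.5. With lists of equal length the CTCF siRNA minus control difference turned to 1.0 peaks in LNCaP and to 1.5 in standard IMR90, and H3K27ac to 300 bp. Control sites were then 0 in LNCaP, 2 in standard IMR90 and 1 in low-cell, with 0 persistent in LNCaP, and H3K27ac consensus regions 0. Counting a peak in either library gave 4 persistent sites in LNCaP, 8 control and 5 persistent in standard IMR90 and 1 persistent in low-cell. From HOXD13 to HOXD1 alone there were 2 standard IMR90 control sites, 2 LNCaP sites shared with them and 0 H3K27ac consensus regions. The lowest-scoring 50% of regions gave an H3K27ac difference of 0 bp and 0 consensus regions, and 3 of 4 libraries 0.

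Leaving out 1 library at a time gave differences of −5.5 to −4.5 peaks in LNCaP, −2.5 to −0.5 in standard IMR90, −5.5 to −3.5 in low-cell and −2.5 to −0.5 between the lines. Persistent sites were 1 to 3 in LNCaP (3 without CTCF siRNA replicate 1, 2 without replicate 2), 3 to 4 in standard IMR90 and 0 to 1 in low-cell (1 without CTCF siRNA replicate 2). Control sites were 7 to 8, 5 to 7 (7 without control replicate 1) and 4 to 6. LNCaP sites shared with standard IMR90 were 4 to 6. H3K4me3 differed by −2725 to 3375 bp, turning to −700 bp without control replicate 1 and to −2725 bp without CTCF siRNA replicate 2. H3K27ac differed by −1125 to 25 bp, with 25 bp without control replicate 1 or CTCF siRNA replicate 1. Consensus regions were 7 to 8 for H3K4me3 and 0 to 1 for H3K27ac, with 0 without control replicate 1 or CTCF siRNA replicate 2. For H3K4me3 the CTCF siRNA libraries covered 8400 and 14500 bp, so the difference depended on which of them was kept. The causes of these shifts were not tested.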
